A study of Mus musculus with 10 samples.

Results

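The transcription factors examined here are 10 genes whose products act in the striatal lineage of the ventral forebrain, namely Isl1, Ebf1, Zfp503, Six3, Sp9, Zfhx3, Meis1, Meis2, Pbx3 and Tshz1. They were taken by name from the 31053 genes of the deposited matrices, and all 10 were found. Their UMIs (unique molecular identifiers, each standing for 1 captured RNA molecule) were read in single cells of embryonic mouse cortex. The dissected cortex of each embryo at E16.5 gave 1 library, for 3 WT embryos, 4 Gatad2b stop/+ embryos (Het) and 3 Gatad2b stop/stop embryos (KO), all on the C57BL/6N-A tm1Brd background. The stop allele is a gene-trap cassette in the germline, so that no cell type was targeted. It leaves the later exons in place, so that 3′ UMIs of Gatad2b need not vanish in KO. Of 80071 cell barcodes, 65779 reached 1000 UMIs with a mitochondrial share of no more than 10% and were kept, with 5147 to 8103 cells and 82872641 to 123737385 UMIs per embryo. Any 2 libraries shared 4 to 19 of these barcodes. Gatad2b, which encodes a subunit of the NuRD chromatin complex, had 130.7 to 139 UMIs in 1000000 (CPM) over all cells in WT, with 89.8 to 95.7 for Het and 50.9 to 57.3 for KO, so the order of the groups matched the labels.

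Each of the 4 Het libraries and 3 KO libraries was made from a separate embryo, as were the 3 WT libraries. The deposited libraries carry either of 2 name prefixes, whose meaning the sources used here do not give. All WT libraries and Het replicate 4 had the first prefix, and the other Het libraries and all KO libraries had the second. For KO against WT the prefix and the genotype therefore cannot be told apart by grouping alone, and a fit with the prefix as a covariate rests on Het replicate 4. The libraries also differed in quality by prefix. The median mitochondrial share of kept cells was 3.60% to 3.97% with the first prefix and 4.31% to 4.66% with the second. Kept cells numbered 7159 to 8103 and 5147 to 6176 per library.

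The striatum is built largely of GABAergic projection neurons born in the lateral ganglionic eminence of the ventral telencephalon. These neurons form a direct pathway, whose cells express the dopamine receptor Drd1, and an indirect pathway, whose cells express Drd2. Isl1, a LIM-homeodomain factor, and Ebf1, a helix-loop-helix factor, are known for the direct pathway, and the zinc finger protein Zfp503 (also called Nolz1) belongs to early striatal neurons. Six3, a homeodomain factor, and Sp9, a zinc finger factor, are known for the indirect pathway, and Sp9 also acts in cortical interneurons. Zfhx3 is a large zinc finger homeodomain protein of maturing neurons. Meis1, Meis2 and Pbx3 are TALE homeodomain proteins that bind DNA together as cofactors, and Tshz1 is a zinc finger factor known from the dorsal part of the lateral ganglionic eminence and its olfactory and amygdala neurons.

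The promoters of 5 factors are shown because these genes went different ways in KO striatal-like cells, a class described below. Levels of Zfp503, Zfhx3 and Sp9 were called higher there, those of Zfhx3 and Sp9 not with the library prefix as a covariate. Isl1 and Six3 had no called change in that class. Each sequence is the 250 bases before a start site listed by RefSeq on GRCm38.p6, the build of the matrices, read on the strand of the gene. Capitals mark CCAAT or its reverse ATTGG, the box bound by NF-Y, and TGACAG or its reverse CTGTCA, the core bound by TALE proteins of the Meis kind, both sought on either strand.
Zfp503 (chr14:21989602-21989851, minus strand): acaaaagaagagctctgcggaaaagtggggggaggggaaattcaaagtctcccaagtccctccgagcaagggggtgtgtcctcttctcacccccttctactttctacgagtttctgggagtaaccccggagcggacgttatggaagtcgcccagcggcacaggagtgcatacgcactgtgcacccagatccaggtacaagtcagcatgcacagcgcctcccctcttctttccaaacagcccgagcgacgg
Zfhx3 (chr8:108714394-108714643, plus strand): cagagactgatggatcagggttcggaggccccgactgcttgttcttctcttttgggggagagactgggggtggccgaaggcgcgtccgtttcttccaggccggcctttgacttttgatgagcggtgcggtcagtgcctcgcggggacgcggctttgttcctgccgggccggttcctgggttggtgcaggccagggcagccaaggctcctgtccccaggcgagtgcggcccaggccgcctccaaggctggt
Sp9 (chr2:73271676-73271925, plus strand): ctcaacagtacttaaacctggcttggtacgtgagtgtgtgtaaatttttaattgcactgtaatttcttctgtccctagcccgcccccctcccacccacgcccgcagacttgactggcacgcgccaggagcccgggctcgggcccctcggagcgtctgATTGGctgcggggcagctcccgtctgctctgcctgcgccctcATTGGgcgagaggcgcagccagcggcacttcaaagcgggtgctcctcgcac
Isl1 (chr13:116309689-116309938, minus strand): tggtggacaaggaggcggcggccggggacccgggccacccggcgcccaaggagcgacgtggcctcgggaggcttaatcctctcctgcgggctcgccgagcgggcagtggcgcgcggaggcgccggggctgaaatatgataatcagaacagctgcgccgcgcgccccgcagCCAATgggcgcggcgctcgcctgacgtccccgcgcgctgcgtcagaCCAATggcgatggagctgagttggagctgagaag
Six3 (chr17:85620584-85620833, plus strand): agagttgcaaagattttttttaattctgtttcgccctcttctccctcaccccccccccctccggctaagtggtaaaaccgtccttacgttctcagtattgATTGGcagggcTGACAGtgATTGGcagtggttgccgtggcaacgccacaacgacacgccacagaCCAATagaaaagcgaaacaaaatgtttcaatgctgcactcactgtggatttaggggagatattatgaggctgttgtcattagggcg
The Zfhx3 window lies at a start site inside the annotated gene, that of Six3 lies within its gene as well, and the other 3 lie at the outer end of theirs. Promoters of 8 of the 10 factors were listed. CCAAT or ATTGG was present in 5 of these 8 genes (Isl1, Six3, Sp9, Meis1 and Meis2), against 33.8% of 32817 windows of the same length over all genes. Six3 held 3 such boxes and 1 TGACAG, and TGACAG in either direction was found in 15.9% of all windows. TAATTA, a core of homeodomain sites, was in none of the 8 and in 4.85% of all windows. No CCAAT box was present in the windows of Zfp503, Zfhx3 and Ebf1. The GC content was 71.2% for Isl1, 66.0% for Zfhx3, 62.4% for Sp9, 57.2% for Zfp503 and 48.8% for Six3, against a median of 52.4% over all windows.

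Cells were clustered without the 10 factors among the variable genes, and the marker lists that gave clusters their names left them out too. Cluster 3 of 24 had the highest score of striatal markers (1.84, against 0.34 for the next class) and is called striatal-like. It held 6233 cells with a median of 8056 UMIs. Among the 10 genes with the largest fold in this cluster were Ebf1, Zfhx3, Isl1, Six3, Zfp503 and Pbx3, together with Foxp2, Syt6, Gad2 and Rxrg. These cells came from tissue labelled as cortex. Their share of all kept cells was 8.70%, 9.05% and 11.1% in the 3 WT embryos, 8.03%, 9.33%, 10.9% and 9.38% in Het, and 8.10%, 11.9% and 8.48% in KO. The groups overlapped. The difference of means was -0.22 percentage points for Het against WT (two-sided exact permutation test, p = 0.914, n = 4 and 3, too few embryos for a p under 0.05). It was -0.12 points for KO against WT (exact permutation p = 0.9, n = 3 and 3, for which the smallest possible p is 0.1).

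All 10 factors had their highest mean level in striatal-like cells. At a finer clustering (resolution 0.8 in place of 0.4) 7 of 10 did, and Sp9, Pbx3 and Tshz1 were highest in caudal interneuron-like cells. Of the single clusters there, 2 were striatal-like, with 4019 and 384 cells. Pbx3 had 415.6 and 969 CPM in these and 1065 in a cluster described further below, which was also highest for Tshz1 (656 CPM, against 151 and 178) and, by a narrow margin, for Meis1 (129.9 CPM, against 81.7 and 128.9). Sp9 was highest in a medial interneuron-like cluster, with 667 CPM against 340.4 and 207. This is a description of classes made from the same cells and carries no test, and levels are not compared between genes because UMIs at the 3′ end differ in yield by gene. Isl1 was the most restricted, with 300.2 CPM ± 38.2 (SD, n = 10 embryos) in striatal-like cells. It had 21.7 ± 7.37 in dividing cells and 21.3 ± 12.1 in medial interneuron-like cells; these levels lay within each other's spread, and Isl1 had at most 5.32 on average in any other class. As the mean of the shares in each embryo, striatal-like cells held 77.0% of the Isl1 UMIs, 74.5% of those of Ebf1, 71.3% for Zfp503, 63.5% for Zfhx3 and 61.8% for Six3. Ebf1 had 1101 CPM ± 173 in striatal-like cells and a second site in mural and fibroblast-like cells, with 403.6 ± 55.3, followed by endothelial-like cells with 105.4 ± 40.6. Zfp503 had 259.9 CPM ± 45.1 and came next in layer I-like cells, at 50.6 ± 12. Within the medial interneuron-like class, Isl1 had 97.7 CPM ± 104.1 in cluster 18, with a range over embryos of 22.9 to 381.4, and 58.7 ± 32.8 in cluster 16, which overlapped. Cluster 18 held only 7 cells in Het replicate 1. The score of cluster 18 for medial interneurons (1.61) was nearly tied with its score for striatal neurons (1.58).

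Six3 reached 459.3 CPM ± 57.9 in striatal-like cells and 144.3 ± 23.2 in dividing cells. Cluster 11, one of the 2 dividing clusters, scored higher for ganglionic eminence progenitors (2.17) than for division (1.96). Sp9 was spread over the whole GABAergic lineage. It had 391 CPM ± 47.8 in striatal-like cells, 299.5 ± 69.8 in medial interneuron-like cells, 266.7 ± 34.8 in dividing cells and 251.7 ± 62.5 in caudal interneuron-like cells, and the last 3 lay within each other's spread. On the mean of the shares per embryo, medial interneuron-like cells held 33.5% of the Sp9 UMIs and striatal-like cells 29.5%. Zfhx3 had 600 CPM ± 78.1 in striatal-like cells, then 180.5 ± 56.2 in microglia-like cells and 154 ± 30.0 in mural and fibroblast-like cells, which overlapped.

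Among the TALE factors, Meis2 was the widest, with 3785 CPM ± 235 in striatal-like cells. It had 1799 ± 273 in subventricular zone-like cells, the class of intermediate progenitors of cortical neurons, then 1389 ± 144 in dividing cells and 1009 ± 63.4 in layer II-IV-like neurons. Of the Meis2 UMIs of an embryo, 34.0% on average lay in layer II-IV-like cells and 19.3% in striatal-like cells. Meis1 had 94.9 CPM ± 12.7 in striatal-like cells, 50.0 ± 3.28 in dividing cells and 27.4 ± 6.92 in caudal interneuron-like cells. Pbx3 had 593.9 CPM ± 95.7 in striatal-like cells and 279.5 ± 51.8 in caudal interneuron-like cells, well above the 95.8 ± 31.7 of medial interneuron-like cells. Tshz1 had 287.6 CPM ± 52.0, then 121.2 ± 23.8 in caudal and 103.3 ± 14.2 in medial interneuron-like cells, which overlapped.

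**Figure D1:**
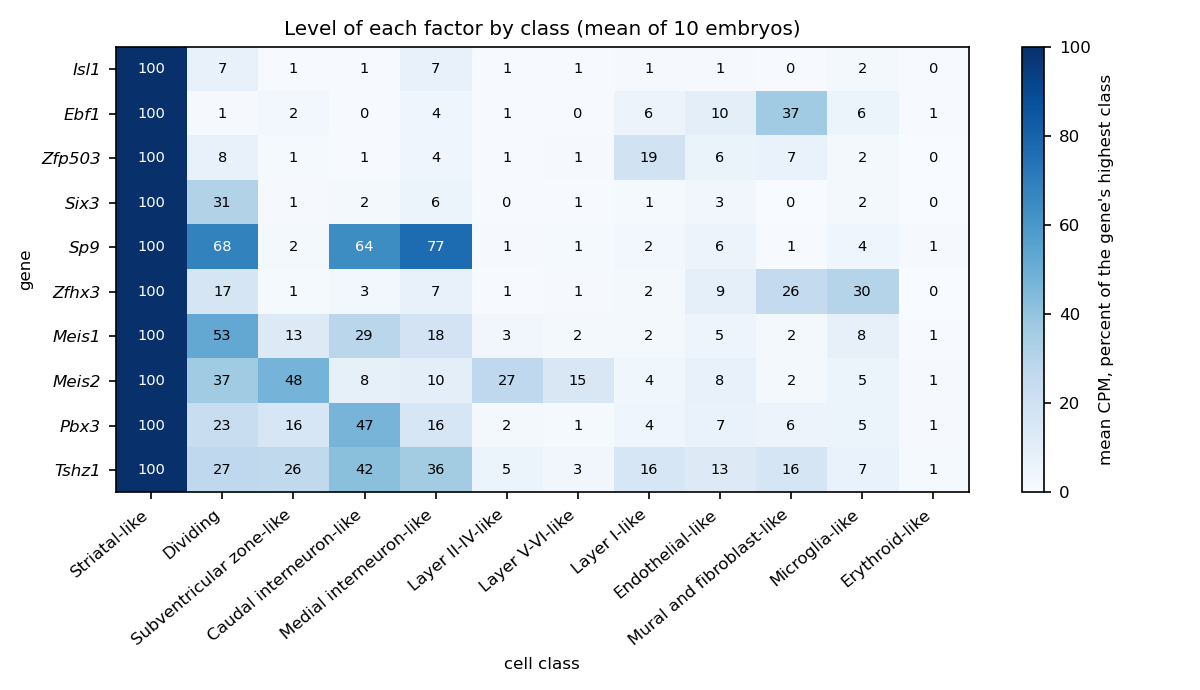
Mean level of each factor (rows) in each of 12 cell classes (columns) over 10 embryos, as a percentage of the CPM in the gene's highest class. All 10 rows reach 100 in striatal-like cells, Isl1 falls furthest between its first and its next class (300.2 and 21.7 CPM), and Sp9 is the most evenly shared among GABAergic and dividing cells (251.7 to 391 CPM).

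Within striatal-like cells the factors were not found together in every cell. Each cell was thinned to 2000 UMIs, which left out shallower cells and kept 5987 of 6233. The median over embryos of the median depth of the class was 8190.75 UMIs before thinning. Meis2 was detected in 96.4% of them (98.2% without thinning), Zfhx3 in 51.0% (73.9%), Pbx3 in 49.7% (73.2%) and Sp9 in 44.1% (62.6%). The shares were 32.0% (44.3%) for Six3, 28.9% (50.2%) for Zfp503, 27.5% (41.3%) for Tshz1, 26.5% (36.4%) for Isl1, 22.3% (25.1%) for Ebf1 and 17.2% (43.1%) for Meis1. Erythroid-like cells, which should lack these genes, gave 5.54% for Meis2 and 0.05% to 0.81% for the other factors, at a median depth of 9272.5 UMIs. All 10 shares in striatal-like cells were above this background. For Ebf1 the share was larger in mural and fibroblast-like cells, at 57.5%, than in striatal-like cells, although the level was lower there.

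**Figure D2:**
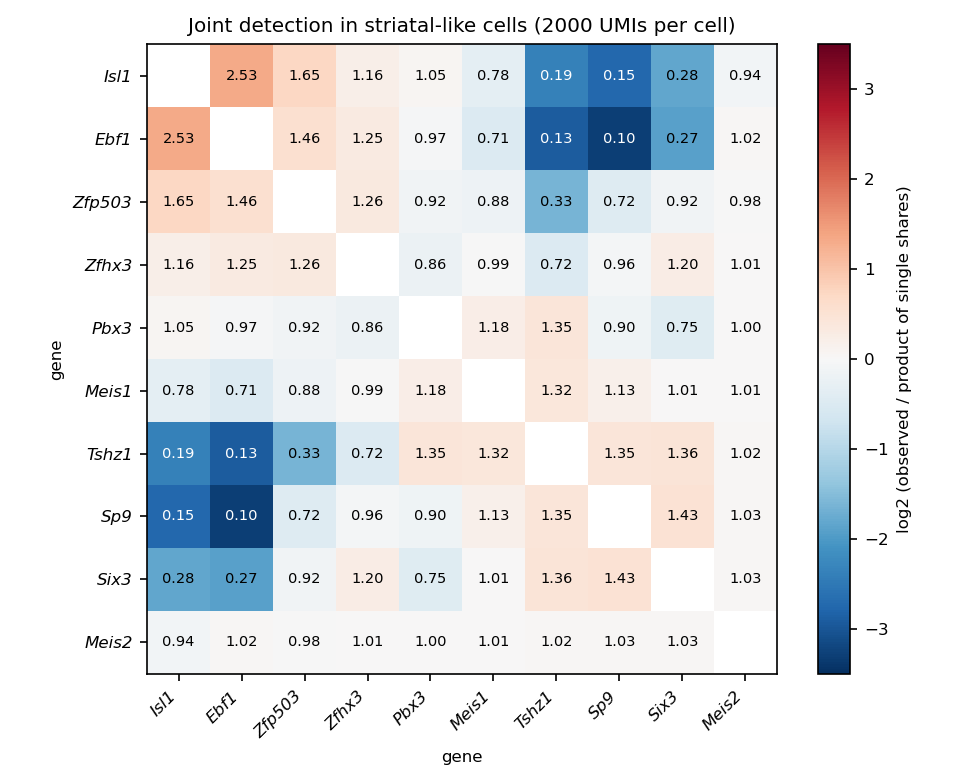
Joint detection of each pair of factors in striatal-like cells thinned to 2000 UMIs, printed as the mean over 10 embryos of the observed share over the product of the single shares and coloured by its log2. Isl1, Ebf1 and Zfp503 form a block above 1, Six3, Sp9 and Tshz1 another, and the fields between Isl1 or Ebf1 and that second block run from 0.10 to 0.28.

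Some pairs of factors were detected together more often, and others less often, than their single shares would give. The share of striatal-like cells with both genes was divided by the product of the single shares in each embryo, so that 1 means no association. Isl1 and Ebf1 were found together 2.53 ± 0.325 times as often as the product (SD, n = 10 embryos, range 2.02 to 3.03), in 14.9% of cells. Zfp503 was at 1.65 ± 0.160 with Isl1 and 1.46 ± 0.128 with Ebf1. Six3 and Sp9 were found together 1.43 ± 0.0717 times as often, and Tshz1 went with Six3 (1.36), Sp9 (1.35), Pbx3 (1.35) and Meis1 (1.32).

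Isl1 and Ebf1 had ratios far below 1 with Six3, Sp9 and Tshz1 in every embryo. Ebf1 and Sp9 were both detected in 0.98% of cells against a product of 9.82%, a ratio of 0.10 ± 0.0389 (range 0.0355 to 0.161). The ratio was 0.13 for Ebf1 with Tshz1, 0.15 for Isl1 with Sp9, 0.19 for Isl1 with Tshz1, 0.27 for Ebf1 with Six3 and 0.28 for Isl1 with Six3. Thinned to 5000 UMIs instead, these 6 ratios ran from 0.157 (Ebf1 with Sp9) to 0.419 (Isl1 with Six3), and the highest in any embryo was 0.511. Zfp503 did not separate in this way from Six3, at 0.919 ± 0.093 (range 0.759 to 1.03), and had 0.725 ± 0.114 with Sp9 and 0.325 ± 0.0804 with Tshz1. Of the 45 pairs, 23 had a mean ratio above 1, and the pairs of Meis2, which is detected in nearly all cells, lay between 0.94 and 1.03. Cells with Isl1 or Ebf1 but neither Six3 nor Sp9 made up 28.8% ± 4.53 of striatal-like cells in WT, 30.4% ± 3.22 in Het and 26.9% ± 1.06 in KO. Cells with Six3 or Sp9 but neither of the other pair made up 50.0% ± 3.91, 49.3% ± 4.21 and 53.8% ± 2.12. The group ranges overlapped for both kinds of cell. Between 4.72% and 5.40% of cells on average had a gene of both pairs, and 14.2% to 15.8% had none of the 4. These shares depend on depth. In cells thinned to 5000 UMIs, 9.33% to 12.9% per embryo had a gene of both pairs and 2.85% to 6.02% had none.

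The genes whose level over the 24 clusters was most like that of each factor were ranked by Pearson's r of log2(CPM + 1) among 12933 genes with at least 10 CPM in some cluster. The clusters share the same 10 libraries, and the values are a description. For Isl1 these were Gm39244 (r = 0.91), which overlaps Zfhx3 on the opposite strand, Fgf3 (0.89) and Drd2 (0.89). For Ebf1 they were Rarb (0.84), a retinoic acid receptor of striatal neurons, Adora2a (0.77) and Ptprm (0.77). Among the genes nearest to Zfp503 were Fgf3 (0.79) and Drd2 (0.73), and Six3 was nearest to Fgf3 (0.87), Esrrg (0.85) and D030055H07Rik (0.85). The highest values of all were those of Sp9 with Dlx5 (0.99), Dlx6 (0.99) and Gad2 (0.98), which mark GABAergic cells as a whole. Zfhx3 was nearest to Peg10 (0.77), Tmem123 (0.76) and Plekhh2 (0.73).
Meis1 was nearest to D030055H07Rik (0.92), Sox1 (0.86) and Gm42695 (0.85), and Meis2 to G630016G05Rik (0.95), 2700033N17Rik (0.93) and Foxp4 (0.91). Pbx3 was nearest to Gad2 (0.83), Dlx6 (0.82) and Adarb2 (0.82), and Tshz1 to E130308A19Rik (0.88), Klhl13 (0.87) and Fbxo34 (0.85). Among the factors themselves the closest pairs over clusters were Isl1 with Six3 (0.90) and Meis1 with Pbx3 (0.90). Isl1 and Six3 thus shared clusters while they were detected in the same cell less often than the product of their shares.

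The comparison of genotypes asked whether the factors differed with loss of Gatad2b in the cells that carry them. UMIs were summed per embryo, and the 10 embryos were fitted together with edgeR's quasi-likelihood test. Calls below required an adjusted p (Benjamini-Hochberg, over all genes tested) under 0.05 together with a log2 fold change beyond 0.25 in either direction. The values of embryos below are TMM-normalized CPM of the summed UMIs. In striatal-like cells 4 of the 10 factors were called in KO against WT, and all 4 were higher, namely Zfp503, Pbx3, Zfhx3 and Sp9. Of the 11639 genes tested in these cells, 14.1% were called in KO against WT and 6.99% were called higher. In Het against WT 1 factor was called, Zfp503, where 1.46% of all genes were. In KO against Het 0 of 10 were called by edgeR, where 0.567% of all genes were. DESeq2 called 2, and 4 had an unadjusted p under 0.05 by edgeR. No share of all genes is reported for DESeq2 calls or unadjusted p, here or below, so such counts have no background. The median log2 fold change of the 10 factors in KO against WT was 0.32, against -0.01 over all genes tested. Gatad2b itself had 147 to 148 CPM in WT striatal-like cells, 107 to 126 in Het and 79.6 to 83.1 in KO.

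Zfp503 (chr14:21983959-21989601 on GRCm38, minus strand) changed in steps. It had 218, 194 and 197 CPM in WT, 269, 284, 255 and 246 in Het, and 309.6, 323 and 314 in KO. No group overlapped another. The log2 fold change was 0.38 ± 0.06 (SE, n = 4 and 3) in Het against WT, with an edgeR adjusted p of 0.00786, and 0.64 ± 0.07 in KO against WT, with an adjusted p of 8.18e-06. KO exceeded Het by 0.26 ± 0.06, which edgeR did not call (adjusted p = 0.0576) and DESeq2 did (adjusted p = 0.0252). Zfp503 and Zfhx3 were the 2 factors ordered WT, Het, KO without overlap, a pattern found upward in 0.962% of the genes tested.

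Pbx3, the TALE cofactor (chr2:34171457-34373142, minus strand, overlapped by C79798 on the other strand), had 462, 535 and 519 CPM in WT, 513, 563, 612 and 604 in Het, and 664, 793 and 696 in KO. All KO embryos lay above all others, while Het overlapped WT. The log2 fold change in KO against WT was 0.51 ± 0.08 (edgeR adjusted p = 0.000468), and that in Het was 0.18 ± 0.08 (adjusted p = 0.203).
Zfhx3 (chr8:107942644-108961630, plus strand) had 522, 524 and 505 CPM in WT, 661, 591, 574 and 537 in Het, and 689.6, 699.6 and 717 in KO. The 3 groups did not overlap, with a KO change of 0.44 ± 0.07 (edgeR adjusted p = 0.000414) and a Het change of 0.19 ± 0.07 that was not called (adjusted p = 0.124). Reads of Zfhx3 and of the 3 genes on its opposite strand can be told apart only as far as the strand was used in counting, which was not stated.
Sp9 (chr2:73271925-73284706, plus strand, overlapped by Cir1 on the other strand) had 350.1, 344 and 373 CPM in WT, 428, 362, 401 and 316 in Het, and 445, 449.7 and 454 in KO. The KO embryos were above all others and the Het embryos spanned the WT range, with a KO change of 0.34 ± 0.08 (edgeR adjusted p = 0.0105).

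The other 6 factors were not called. Counting these, 5 of 10 did not overlap between KO and WT, as did 34.7% of all genes, and 3 did not between Het and WT, as did 16.4%. Tshz1 had 218, 278 and 246 CPM in WT and 314, 336 and 322 in KO, which did not overlap, but its 4 Het embryos ran from 211 to 387, and the adjusted p of the KO change of 0.39 ± 0.14 was 0.0627. Ebf1 had 884 to 1179 CPM in WT and 1127 to 1472 in KO, which overlapped, with a KO change of 0.30 ± 0.12 (edgeR adjusted p = 0.107). Isl1 had 287 to 325 CPM in WT, with 269.9 to 387 for Het and 246 to 295 for KO, and its KO change was -0.13 ± 0.10. Six3 was lower in all Het embryos (401 to 455 CPM) than in all WT embryos (475 to 565), at -0.26 ± 0.08 (edgeR adjusted p = 0.113, DESeq2 adjusted p = 0.0452), and KO overlapped WT. Meis1 had 89.8 to 117 CPM in WT and 79.1 to 91.6 in KO, with a KO change of -0.27 ± 0.10 (edgeR adjusted p = 0.0762). Meis2 had 3782 to 3985 CPM in WT and 3747 to 3928 in KO, and its KO change was 0.00 ± 0.07.

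**Figure D3:**
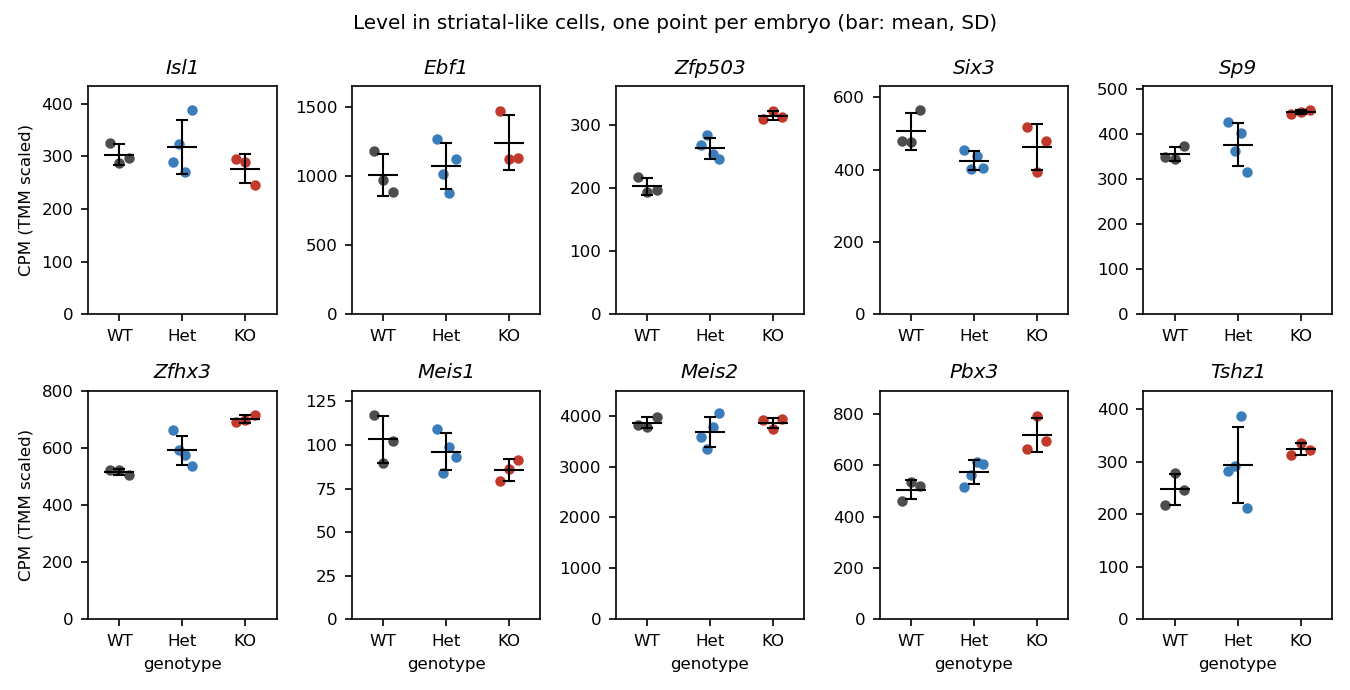
TMM-normalized CPM of each factor in striatal-like cells (y axis from 0, 1 panel per gene), with 1 point per embryo and the group mean and SD as bars, for WT (n = 3), Het (n = 4) and KO (n = 3). The KO points of Zfp503, Pbx3, Zfhx3, Sp9 and Tshz1 lie above all WT points, and those of Meis2 overlap them.

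With the library prefix as a covariate, 2 of the 4 calls in KO against WT were kept. Zfp503 had a log2 fold change of 0.51 ± 0.10 (edgeR adjusted p = 0.0191) and Pbx3 one of 0.61 ± 0.13 (adjusted p = 0.0255). Zfhx3 was no longer called at 0.26 ± 0.10 (adjusted p = 0.322), Sp9 was at 0.01 ± 0.11 (adjusted p = 0.99) and Tshz1 at -0.22 ± 0.17 (adjusted p = 0.712). The call of Zfp503 in Het against WT was lost as well, at 0.28 ± 0.08 (adjusted p = 0.481). Among the 6 libraries of the second prefix, which holds no WT, KO exceeded Het by 0.35 ± 0.08 for Pbx3 (edgeR adjusted p = 0.0609), by 0.23 ± 0.06 for Zfp503 (adjusted p = 0.125) and by 0.20 ± 0.07 for Zfhx3 (adjusted p = 0.237). Het replicate 4, the one mutant library of the first prefix, had the lowest Het value of Sp9, Zfhx3, Tshz1 and Zfp503.

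**Figure D4:**
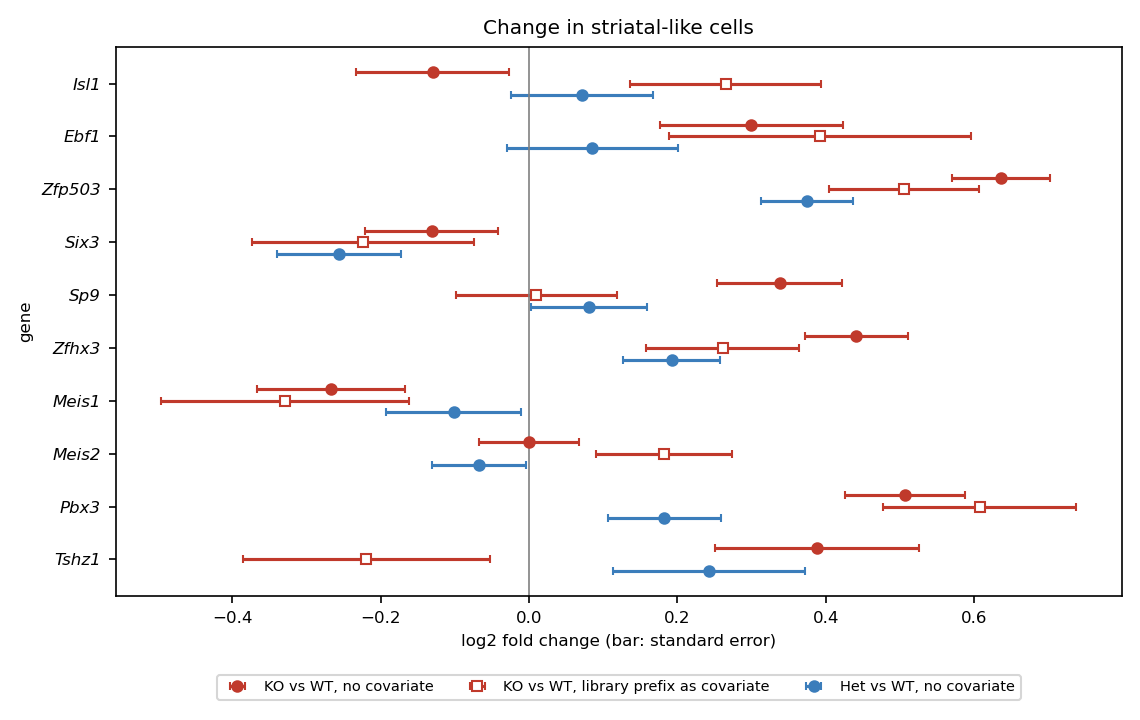
Log2 fold change (x axis) of each factor in striatal-like cells with its standard error, for KO against WT without a covariate (filled red), KO against WT with the library prefix as a covariate (open squares) and Het against WT (blue). Zfp503 and Pbx3 stay between 0.51 and 0.64 in both KO fits, while Sp9 moves from 0.34 to 0.01 and Tshz1 from 0.39 to -0.22.

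At a finer clustering (resolution 0.8) most striatal-like cells fell into a sub-cluster led by Ebf1 and Isl1, which took 59.3% to 71.6% of the class per embryo, and a sub-cluster led by Pbx3 and Tshz1, which took 22.6% to 36.3%. The second did not score highest for striatal markers. Its leading score was that of caudal interneurons (1.04, then 0.742 for ganglionic eminence progenitors), while the Ebf1-led sub-cluster scored 2.12 for striatal neurons. The shares of both overlapped between genotypes. That of the Pbx3-led sub-cluster averaged 25.62% in WT (22.6% to 29.32%), 31.17% in Het (25.37% to 36.3%) and 30.35% in KO (25.89% to 35.02%). The part of these shares in the changes over the class was not tested. The sub-clusters came from these same cells, so the levels in each, in CPM without TMM scaling, are a description. In the Ebf1-led cells Pbx3 had 283.5, 328 and 303 CPM in WT, 393, 397, 379.9 and 427 in Het, and 497, 591 and 556 in KO, with no overlap between the 3 groups and a ratio of means of 1.80 for KO to WT. In the Pbx3-led cells it had 1125, 1063 and 1240 CPM in WT, 852, 931, 1034 and 1021 in Het, and 1187, 1168 and 1061 in KO, a ratio of 0.997. The KO embryos thus lay above WT in the sub-cluster with less Pbx3 and overlapped WT in the one with more. A split of the class by other factors, given below, did not show this pattern. That split used Sp9, itself called higher in KO, so the cells on each side may differ by genotype.
The fit over the striatal-like class of the finer clustering, which holds the Ebf1-led cells and not the Pbx3-led ones, gave Pbx3 changes of 0.37 ± 0.07 in Het (edgeR adjusted p = 0.00851) and 0.81 ± 0.07 in KO (adjusted p = 1.85e-07).

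The other called factors were higher in KO in both sub-clusters. Zfp503 was 1.54 times as high in the Ebf1-led cells, where it averaged 266 CPM in WT and 410 in KO, and 1.90 times as high in the Pbx3-led cells, where it averaged 34.1 and 64.7. Zfhx3 was 1.35 and 1.5 times as high, and Sp9 1.19 and 1.21 times, with KO above WT in every embryo for all of these. When cells were instead split by whether Isl1 and Ebf1 or Six3 and Sp9 had more UMIs, a split chosen after seeing the data, Zfp503 was 1.67 times as high in KO as in WT on the Isl1 and Ebf1 side and 1.24 times on the other. In Het these ratios were 1.41 and 1.00. Tshz1 was 1.36 times as high in KO cells of the Six3 and Sp9 side, at 365 CPM in WT and 495 in KO, and had 14.5 to 48.1 CPM on the other side. Pbx3 was 1.38 times as high in KO on the Isl1 and Ebf1 side and 1.43 times on the other, without overlap with WT on either. Zfhx3 was 1.53 and 1.21 times as high, and overlapped WT on the Six3 and Sp9 side.

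**Figure D5:**
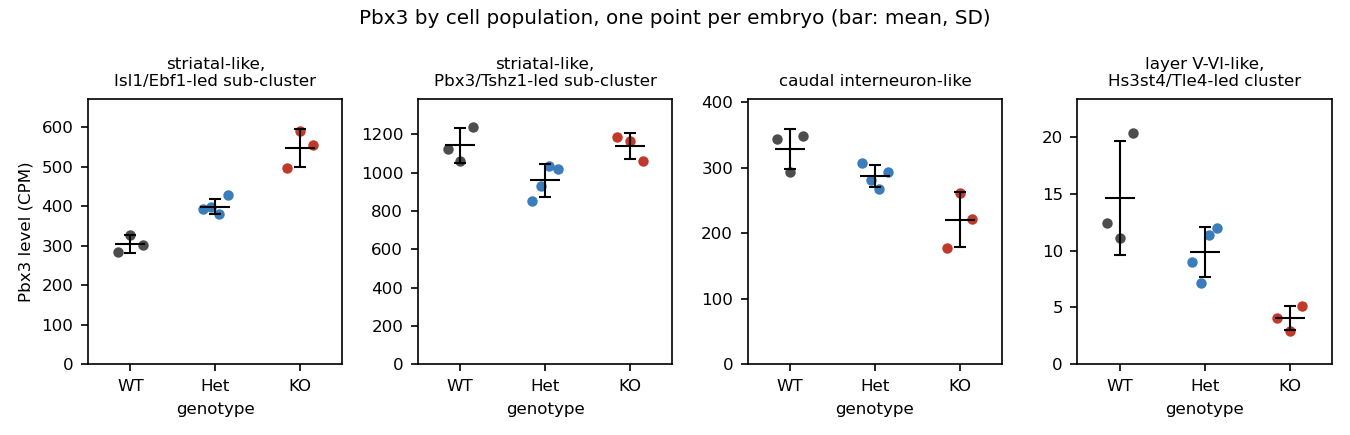
Pbx3 level in CPM (y axes from 0, on different scales) by genotype in 4 cell populations, with 1 point per embryo and the mean and SD as bars. KO lies above WT without overlap in the Ebf1-led part of the striatal-like class (means 305 and 548), overlaps WT in the Pbx3-led part, whose own leading score is that of caudal interneurons, and lies below WT in caudal interneuron-like cells and in the Hs3st4-led cluster of layer V-VI-like cells.

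Other genes of the same families and lineage were read from lists. Of 17 paralogues and DNA-binding partners of the factors, 13 were tested in striatal-like cells. In KO against WT 3 were called, where 14.1% of all genes were. The 2 called higher were Sp8, the closest relative of Sp9, at 0.72 ± 0.20 (edgeR adjusted p = 0.0216), and Zfhx4 at 0.32 ± 0.10 (adjusted p = 0.0336). The 1 called lower was Pknox2, a TALE protein, at -0.59 ± 0.20 (adjusted p = 0.0487). Their median change was 0.10, against -0.01 over all genes. In Het against WT none of the 13 was called by edgeR, where 1.46% of all genes were.
Of 20 other transcription factors of the ventral telencephalon, 17 were tested and 8 were called in KO against WT, with 7 higher and a median change of 0.25, where 14.1% of all genes were called and 6.99% were called higher. The largest rises were those of Sox6 (1.18 ± 0.20), Nr2f2 (0.65 ± 0.20) and Foxp2 (0.57 ± 0.06). Sox6 and Nr2f2 are known for interneurons of the medial and caudal eminence, and Foxp2 for striatal neurons. Lhx6, which defines medial interneurons, was lower, at -1.53 ± 0.31 (edgeR adjusted p = 0.0028). In Het against WT Foxp2 was among those called higher (0.34 ± 0.06) and Lhx6 was called lower (-1.22 ± 0.27).

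Markers of other cells moved with genotype in this class. The summed level of 5 markers of excitatory neurons was 101 to 135 CPM in WT, while Het embryos had 51.5 to 65.6 and KO embryos 41.0 to 73.2. That of 6 interneuron markers was 117 to 146 CPM in WT, 76.3 to 104 in Het and 49.2 to 75.4 among KO embryos. In KO against WT 2 of 3 tested excitatory markers (Neurod2 and Neurod6) and 4 of 6 interneuron markers (Lhx6, Sst, Npy and Maf) were called lower, where 14.1% of all genes were called. In Het against WT Neurod2 (-0.93), Neurod6 (-0.92) and Lhx6 (-1.22) were among those called lower, where 1.46% of all genes were called. The 3 microglia and 2 endothelium markers summed to at most 3.64 CPM in any group, and 2 erythroid markers ranged from 38.5 to 829.8 CPM without separating the groups. The part of these markers in the changes of the 10 factors was not tested.

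Over all cells 2 of 10 factors were called in KO against WT, where 24.5% of 17647 genes were. Sp9 had 56.0, 54.1 and 64.2 CPM in WT and 65.5, 88.9 and 78.6 in KO, without overlap (as 52.7% of all genes), a log2 fold change of 0.42 ± 0.11 (edgeR adjusted p = 0.0128). Zfp503 had 14.7, 13 and 17.6 CPM in WT and 17.5, 25.5 and 19.4 in KO, which overlapped, at 0.46 ± 0.15 (adjusted p = 0.0302). In Het against WT none of the 10 was called by edgeR or DESeq2 and none had an unadjusted p under 0.05, where 2.98% of all genes were called. In KO against Het none was called by either tool and 1 had an unadjusted p under 0.05, where 5.5% of all genes were called. KO replicate 2 had the highest Zfp503 and Sp9 over all cells and the highest share of striatal-like cells (11.9%). With striatal-like cells left out of the sums, an alternative chosen after seeing the data, Sp9 was at 0.52 and Zfp503 at 0.42, and edgeR called both. Without KO replicate 2 the changes were 0.31 for Sp9 (adjusted p = 0.0609) and 0.28 for Zfp503 (adjusted p = 0.14), and both calls were also lost without WT replicate 2 or with the prefix as a covariate. That of Zfp503 was lost without WT replicate 1 (adjusted p = 0.08) or KO replicate 3 (adjusted p = 0.0505) too.

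Outside the striatal-like class, 75 pairs of a factor and a class could be tested. In KO against WT 13 pairs were called, 7 higher and 6 lower, in Het against WT 3, all lower, and in KO against Het 3. DESeq2 called 12, 3 and 1. The share of all genes called in KO against WT ran from 0.286% to 30.4% over these classes, and each count is read against its own class below. None of the 13 lay in erythroid-like, layer I-like, microglia-like or mural and fibroblast-like cells, where 7.74%, 5.35%, 2.24% and 0.286% of all genes were called in KO against WT. In caudal interneuron-like cells 3 of 7 factors were called in KO against WT, where 6.74% of all genes were. Markers of other cells moved there too, with 2 of 2 erythroid markers lower in KO (median -3.30) and in Het (median -3.00) and 1 of 3 tested markers of excitatory neurons lower in KO. Their part in these changes was not tested. Pbx3 went down there, with 345, 290.1 and 345 CPM in WT, 314, 285, 269 and 293 in Het, and 182, 267 and 222 in KO, a log2 fold change of -0.55 ± 0.10 (edgeR adjusted p = 0.0016). All KO embryos were below all WT and Het embryos, the opposite order to that in striatal-like cells. The border between these classes moved with the clustering, as the Pbx3-led sub-cluster shows, and its part in this opposite order was not tested. Sp9 rose from 293, 158 and 210.1 CPM in WT to 322, 361 and 316 in KO, at 0.60 ± 0.13 (adjusted p = 0.00583), and exceeded Het by 0.59 ± 0.12 (adjusted p = 0.0168), where 0.477% of genes were called, a difference that DESeq2 did not call. Tshz1 rose from 98.3 to 114 CPM in WT to 138 to 177 in KO, at 0.52 ± 0.11 (adjusted p = 0.00541).

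Sp9 was also higher in the other GABAergic classes. In medial interneuron-like cells, where 5.8% of all genes were called in KO against WT, it was the 1 factor of 10 called, at 0.71 ± 0.14 (edgeR adjusted p = 0.0168). It had 279.7, 195 and 233 CPM in WT, 331, 319.6, 256 and 234 in Het, and 401, 399 and 357 in KO. In cluster 2, which held 67.9% to 87.6% of this class, the means were 309.8 CPM in WT, 356 in Het and 511 in KO without overlap. Cluster 16, with less Sp9, made up 12.4% to 14.1% of the class in WT and 4.52% to 9.77% in KO. Against WT, KO had 1 of 6 interneuron markers and the 1 endothelial marker tested (-2.07) lower in the medial interneuron-like class, and 1 of 2 erythroid markers lower in dividing cells. The part of these in the changes was not tested. In dividing cells, where 9.14% of genes were called, Sp9 was at 0.37 ± 0.10 (edgeR adjusted p = 0.0351) and Zfhx3 at 0.54 ± 0.12 (adjusted p = 0.0135). Zfhx3 had 76.7 to 80.4 CPM in WT dividing cells, 97.4 to 110 in Het and 89.5 to 141 in KO. With the prefix as a covariate none of these KO against WT calls in GABAergic and dividing cells was kept, including those of caudal interneuron-like cells, while the Sp9 difference between KO and Het in caudal interneuron-like cells was (0.60, adjusted p = 0.0108).

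In subventricular zone-like cells, where 15% of all genes were called in KO against WT and 0.58% in Het against WT, Meis2 was the 1 factor of 9 called in each. It had 2267, 2047 and 2068 CPM in WT, 1676, 1512, 1778 and 1797 in Het, and 1628, 1565 and 1672 in KO. All 7 mutant embryos were below all WT embryos, at -0.33 ± 0.06 in Het (edgeR adjusted p = 0.0262) and -0.39 ± 0.07 in KO (adjusted p = 0.000465). With the prefix as a covariate the changes were -0.24 and -0.27 and were not called. In dividing cells Meis2 had 1438, 1517 and 1533 CPM in WT and 1323, 1244 and 1208 in KO, without overlap, while Het overlapped WT. The KO change there was -0.2497 ± 0.07 (edgeR adjusted p = 0.0325, DESeq2 adjusted p = 0.0131). It was not called because it fell just short of the limit on fold change.

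In layer V-VI-like neurons, where 23.8% of all genes were called in KO against WT and 9.16% in KO against Het, Pbx3 was low and fell in both comparisons. It had 10.7, 8.86 and 10.6 CPM in WT, 8.24, 8.34, 7.61 and 6.67 in Het, and 6.25, 5.37 and 5.85 in KO. The change was -0.78 ± 0.12 against WT (edgeR adjusted p = 0.000255) and -0.39 ± 0.11 against Het (adjusted p = 0.0405), which DESeq2 did not call. The call against WT was kept with the prefix as a covariate (-1.05, adjusted p = 0.0024). In cluster 5 of this class, led by the corticothalamic genes Hs3st4 and Tle4, Pbx3 went from 12.5, 11.1 and 20.4 CPM in WT to 4.09, 2.95 and 5.09 in KO, a ratio of means of 0.276. The level of erythroid-like cells, a background for free RNA, was 4.70 CPM ± 4.63. Of 6 interneuron markers, 4 were lower in KO than in WT in this class (median -0.60), and their part in the fall of Pbx3 was not tested.

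In layer II-IV-like neurons 4 of 10 factors were called in KO against WT, where 30.4% of all genes were, and 2 in Het against WT, where 6.29% were. Tshz1 had 12, 11.9 and 14 CPM in WT and 20.5, 18.6 and 20.7 in KO, at 0.66 ± 0.11 (edgeR adjusted p = 0.000262). KO also exceeded Het, by 0.46 ± 0.10 (adjusted p = 0.00596), where 11.8% of genes were called. This class is made of clusters 0 and 1, and Tshz1 was mostly in cluster 1. Cluster 1 made up 31.4% to 37.9% of the class in WT, with 38.3% to 44.6% for Het and 49.1% to 55.2% for KO. Within the clusters the ratio of KO to WT for Tshz1 was 1.01 in cluster 0 and 1.12 in cluster 1, so the difference over the class stood beside a larger share of the cluster with more Tshz1. Isl1 (0.56 to 3.95 CPM over the embryos), Six3 (0.39 to 3.86 CPM) and Meis1 (1.99 to 4.10 CPM) were also called in KO, at -1.73, -1.5 and 0.63. Meis1 too was higher in cluster 1 (6.28 CPM over all embryos) than in cluster 0 (1.52 CPM). The part of the larger share of cluster 1 in the change of Meis1 was not tested. In Het, Isl1 was called at -0.99 and Sp9 (2.74 to 5.89 CPM) at -0.62. The levels of Isl1, Six3 and Sp9 were near those of erythroid-like cells, which were 1.25 CPM for Isl1, 1.22 for Six3 and 4.01 for Sp9, while Meis1 lay above its 0.60 CPM there. In layer II-IV-like neurons, markers of other cells fell too. In KO against WT 5 of 6 interneuron markers (median -0.997) and 2 of 2 endothelial markers (median -1.38) were lower, and in Het against WT 3 of 6 interneuron markers (median -0.79) and 1 of 2 endothelial markers. The same holds for Isl1 in layer V-VI-like neurons, called at -0.98 in KO from 0.84 to 3.08 CPM, a sign that turned with the prefix as a covariate (0.15, adjusted p = 0.865). The part of such cells or of background in these changes was not tested.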

How the data were processed

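Single-cell 3′ libraries (10x, version 3) were made from papain-dissociated E16.5 cortex, 1 per embryo. Per the labels and file headers, the authors aligned reads to mm10 with Cell Ranger 6.0.2 (the study's methods name an earlier version) and deposited raw UMI counts per gene and cell. The limits on cells were those of the study's methods (1000 UMIs or more, 10% mitochondrial or less). Kept cells were log-normalized and integrated over embryos with Seurat 5.3.0 on 2000 variable genes without the 10 factors, and clustered at resolution 0.4. Doublet-like cells were marked and kept; their removal was an alternative. Clusters were named from markers, with the limits for naming set after the markers were seen, so classes may differ from the study's.

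Counts were summed per embryo and class and fitted for all 10 embryos with edgeR 4.0.16 (R 4.3.3; filterByExpr, TMM, quasi-likelihood F test, Benjamini-Hochberg adjustment over all genes of the class). DESeq2 1.42.0 was an alternative. Each SE is the absolute log2 fold change over the square root of F. Fits were tested on simulated counts. For KO against WT in striatal-like cells, 57% of 200 genes changed 1.5-fold and 81.5% of those changed 2-fold were called, among 11639 genes. The embryos are separate animals, genotyped by PCR. Each embryo gave 82872641 to 123737385 kept UMIs, so a level of a few CPM in 1 class rests on few UMIs. Fewer cells of a kind and less RNA per cell cannot be told apart in sums over all cells.

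Named were the 10 factors, Gatad2b, the 3 genes most like each factor over clusters, and from each gene list the called genes of largest change, up to 4 in each direction; some genes that this rule names are not reported here. The factors and lists were chosen with earlier results of these data known. Alternatives changed the test, scaling, filters, clustering, covariates and embryos. Promoters and start sites are from RefSeq.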

Additional observations from a re-analysis of the deposited data

Results flagged for a closer look

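Whether a factor changed differently in striatal-like cells than in another class was tested for 100 combinations of factor, class and comparison, in an edgeR fit over both classes with the embryo as a block that was chosen after seeing the data. An adjusted p under 0.05, over all genes of each fit, was reached by 13. The share of all genes that passed in each fit is not reported here. The count of 13 is therefore not read as a result about the factors. Each value below is the log2 fold change in striatal-like cells minus that in the other class. The fit had no term for the library prefix within a class. In the differences of KO against WT, prefix and genotype therefore cannot be told apart.

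Pbx3 differed between striatal-like cells and 4 classes. In KO against WT its change was higher in striatal-like cells by 1.05 ± 0.10 (SE) than in caudal interneuron-like cells, by 1.26 ± 0.136 than in layer V-VI-like cells, by 0.49 ± 0.0752 than in dividing cells and by 0.44 ± 0.0927 than in layer II-IV-like cells. In Het against WT it was higher by 0.575 ± 0.121 than in layer V-VI-like cells. The KO differences from caudal interneuron-like and layer V-VI-like cells joined a rise and a fall, each called in its own class. With the prefix as a covariate, the fall in caudal interneuron-like cells was no longer called. The rise in striatal-like cells and the fall in layer V-VI-like cells still were. The border between striatal-like and caudal interneuron-like cells moved with the clustering, since at resolution 0.8 the Pbx3-led part of the striatal-like class scored highest for caudal interneurons. Its part in the difference was not tested.

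Sp9 differed from its change in layer II-IV-like cells by 0.76 ± 0.157 in KO and by 0.69 ± 0.148 in Het. The difference for Meis2 against dividing cells was 0.23 ± 0.0445 in KO. Isl1 differed from layer II-IV-like cells by 1.05 ± 0.211 in Het and 1.57 ± 0.259 in KO, and from layer V-VI-like cells by 0.87 ± 0.259 in KO. Six3 and Meis1 differed from layer II-IV-like cells in KO by 1.36 ± 0.307 and -0.92 ± 0.155. In KO the layer II-IV-like class held a larger share of the cluster with more Meis1. The levels of Isl1, Six3 and Sp9 in those excitatory classes, and of Pbx3 in layer V-VI-like cells, were near those of erythroid-like cells. For Isl1, Six3 and Sp9 the erythroid-like levels were themselves lower in KO than in WT.

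For Zfp503 no such difference passed the threshold. Sp9 differed from caudal interneuron-like cells by -0.29 (adjusted p = 0.465) and from medial interneuron-like cells by -0.39 (adjusted p = 0.229) in KO against WT. Of 25 Het groups of 4 embryos tested for 1 far value, 0 had one, where chance gives about 1 in 20.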

How the results depend on the processing

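The shares of all genes called under the alternatives of this section are not reported here. Its counts therefore show how the calls depend on the processing, not an excess among the factors. In striatal-like cells the 4 calls of KO against WT became 7 with a replicate block, 7 with no filter on low counts and 2 with the library prefix as a covariate, and 4 to 5 with 1 embryo left out. The 1 Het call became 2 with DESeq2, no filter, the block, at most 5% mitochondrial UMIs or resolution 0.8, and 0 with the prefix, and 0 to 2 with 1 embryo left out (0 without WT replicate 3, where Zfp503 had 0.35 and an adjusted p of 0.0851). The 0 of KO against Het became 2 with DESeq2, 3 with no filter and 1 with the block, the prefix, at most 5% mitochondrial UMIs, resolution 0.8 or the factors among the variable genes, and 0 to 1 with 1 embryo left out. Over all cells the 2 KO calls became 5 with the block, at most 5% mitochondrial UMIs or without striatal-like cells (chosen after seeing the data), and 0 with the prefix, and 0 to 3 with 1 embryo left out. The 0 of Het became 1 with the block.

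In the other classes the 3 Het calls became 20 with no filter, 7 with the block and 1 with the prefix, doublets removed or at most 5% mitochondrial UMIs, and 0 to 4 with 1 embryo left out. The 13 KO calls became 29 with no filter and 2 with the prefix, and 6 (without KO replicate 2) to 14 with 1 embryo left out. The 3 of KO against Het became 1 with DESeq2, 13 with no filter, 5 with the block, 9 among the 6 libraries of 1 prefix and 5 with doublets removed, and 1 to 4 with 1 embryo left out. Isl1 in layer V-VI-like cells turned to 0.15 with the prefix.

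The difference in the share of striatal-like cells turned to 0.0487 points (Het) and 0.057 points (KO) at most 5% mitochondrial UMIs. With 1 embryo left out it ran from -0.71 to 0.54 (Het; 0.246 without Het replicate 1 and 0.536 without WT replicate 3) and from -1.34 to 0.63 (KO; 0.579 without KO replicate 1, 0.387 without KO replicate 3 and 0.629 without WT replicate 3). The causes were not tested.

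Over their alternatives the KO changes ran from 0.51 to 0.69 for Zfp503, 0.43 to 0.81 for Pbx3, 0.26 to 0.47 for Zfhx3 and 0.01 to 0.37 for Sp9 in striatal-like cells, and the Sp9 call was also lost at resolution 0.8 (0.29, adjusted p = 0.0686). Of 570 single-factor values in that class, 535 kept their side of the threshold (of these, 18 that were not called turned sign), 30 came to pass it and 5 ceased to. Over all cells 485 of 510 kept it (35 values turned sign). Both tallies cover every factor, most of them not called. In the other classes only pairs called in the main fit were followed, so their tally is not comparable. Of 351 such values 264 kept it, 86 ceased to pass and 1 turned sign. With the block KO calls were added for Tshz1 (0.39, adjusted p = 0.0011), Ebf1 (0.30, adjusted p = 0.0005) and Meis1 (-0.26, adjusted p = 0.0329). Replicate numbers did not pair the embryos: the correlation of same-numbered embryos ran from -0.19 to 0.13 over 9 pairs, and 2 of 10 embryos were nearest to their own number. Counts near 0 limit the excitatory classes, and 3 or 4 embryos per group limit all p-values.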
